A study of Homo sapiens with 8 samples.

Results

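The 40 genes described here encode cyclins, kinases, kinesins, kinetochore proteins and cytokinesis factors that act in G2 and mitosis. They were taken by symbol from a deposited table of 22504 genes, and each of the 40 symbols matched 1 row. All 40 reached 1 FPKM (fragments per kilobase of transcript, scaled to the mapped fragments of the library) in each of the 8 libraries, so no member was lost to the filter on low values. The libraries are poly(A) RNA sequencing of U2OS cells, a human osteosarcoma line. The cells overexpressed the actin mutant G13R or expressed GFP as the control, and both kinds were sampled in normal growth and under serum stimulation. This gives 4 groups of 2 libraries: GFP normal, GFP serum, G13R normal and G13R serum. The labels do not say which actin gene carries the mutation, how it was introduced, whether the cells are 1 clone, how long serum was given or whether serum was withdrawn before it.

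Cells enter mitosis when CDK1, bound to A-type and B-type cyclins, is activated by CDC25 phosphatases, and the Polo and Aurora kinases then direct spindle assembly. The spindle checkpoint holds back the anaphase-promoting complex, an E3 ubiquitin ligase, until the kinetochores are attached, after which CDC20 and UBE2C drive the destruction of cyclin B and securin. Transcripts of these genes accumulate as cells pass from S phase to mitosis. Their promoters are repressed in quiescent and G1 cells by the DREAM complex and activated later by MYBL2 and FOXM1, both of which work through the MuvB core.

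Some facts of the series bear on every value. Summed FPKM lay between 496166 and 559496 per library, and 12065 to 12568 genes reached 1 FPKM. ACTB, which encodes cytoplasmic beta-actin, took 1.57 to 2.27% of the sum in the G13R libraries and 0.48 to 0.497% in the GFP libraries, so this gene separates the 2 kinds of library, while the labels do not say that the mutant is a beta-actin. VIM, SPARC and COL1A1, which mesenchymal and bone-derived cells express, were present in every group, with 1158 ± 71.5, 559 ± 56.7 and 41.1 ± 6.34 FPKM in GFP normal cells (mean ± SD, n = 2, as for every FPKM printed with ± below), while COL1A2 and SP7 stayed under 1 FPKM in every group mean. Of 16 markers of 4 other cell types, 10 stayed under 1 FPKM in each library. The epithelial markers EPCAM, CDH1 and KRT5 and the neural markers SYP, RBFOX3 and GFAP reached 1 FPKM in at least 1 library. The highest, the synaptic gene SYP, reached 14.2 FPKM. The labels do not tie the 2 libraries of a group to separate cultures. The p-values therefore rest on a spread between libraries that may be technical alone. In bulk RNA, fewer cells in G2 or mitosis and less of a transcript per such cell cannot be told apart.

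The promoters are shown before the values, since shared promoter elements are what this gene class is known for. RefSeq promoter windows (GRCh38.p14; 250 bases before the gene's start and 50 from it on, first-listed start of each gene) were found for 33 of the 40. The windows were searched on both strands for TTTGAA and TTCGAA, the core letters of the cell cycle genes homology region that MuvB recognises, and for CCAAT, the letters of the box bound by NF-Y. Overlapping matches were counted separately. Of the 33 promoters, 23 (69.7%) held TTTGAA or TTCGAA, against 16.6% of 27305 promoters of the same length. A match lay within 70 bases before the start in 15 of the 33 (45.5%), against 3.61% of all promoters. CCAAT was present in 25 of the 33 (75.8%, against 35.7% of all), at least 2 times in 16 (48.5%, against 11.3%), and together with TTTGAA or TTCGAA in 19 (57.6%, against 6.58%). A match is a description of letters and not a measured site, and these data hold no measurement of factor binding.

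The 250 bases before the start are printed for 5 genes whose values are described below: 2 that fell after serum in GFP cells and carry both motifs (PLK1 and CDC20), 1 with adjacent matches on the 2 strands (ANLN), 1 with 4 CCAAT boxes (CCNB2), and 1 with CCAAT only (KIF20A). Capitals mark the TTTGAA and the CCAAT letters, read on either strand. All 5 are on the plus strand of GRCh38.p14, and the PLK1 window is chr16:23678639-23678888, CDC20 chr1:43358731-43358980, ANLN chr7:36389612-36389861, CCNB2 chr15:59104896-59105145 and KIF20A chr5:138178862-138179111.
PLK1: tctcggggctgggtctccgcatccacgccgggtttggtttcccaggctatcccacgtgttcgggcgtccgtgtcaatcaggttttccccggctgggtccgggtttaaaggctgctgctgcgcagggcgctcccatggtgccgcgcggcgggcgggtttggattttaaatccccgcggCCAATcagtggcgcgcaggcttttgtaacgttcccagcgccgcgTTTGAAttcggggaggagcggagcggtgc
CDC20: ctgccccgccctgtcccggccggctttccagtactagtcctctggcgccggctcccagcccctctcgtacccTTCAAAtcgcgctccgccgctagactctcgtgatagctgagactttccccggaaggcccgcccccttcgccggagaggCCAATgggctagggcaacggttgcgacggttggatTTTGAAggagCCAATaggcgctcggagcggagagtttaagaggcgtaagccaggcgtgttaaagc
ANLN: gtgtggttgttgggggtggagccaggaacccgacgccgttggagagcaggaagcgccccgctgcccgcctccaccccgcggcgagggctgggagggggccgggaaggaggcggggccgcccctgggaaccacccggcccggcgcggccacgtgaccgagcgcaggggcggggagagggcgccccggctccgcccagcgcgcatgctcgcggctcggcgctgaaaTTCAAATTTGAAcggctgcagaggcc
CCNB2: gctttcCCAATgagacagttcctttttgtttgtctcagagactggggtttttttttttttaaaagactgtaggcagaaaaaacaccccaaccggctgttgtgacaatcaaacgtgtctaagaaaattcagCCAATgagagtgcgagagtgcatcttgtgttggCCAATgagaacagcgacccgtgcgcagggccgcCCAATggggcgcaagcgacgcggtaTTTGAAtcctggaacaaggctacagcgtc
KIF20A: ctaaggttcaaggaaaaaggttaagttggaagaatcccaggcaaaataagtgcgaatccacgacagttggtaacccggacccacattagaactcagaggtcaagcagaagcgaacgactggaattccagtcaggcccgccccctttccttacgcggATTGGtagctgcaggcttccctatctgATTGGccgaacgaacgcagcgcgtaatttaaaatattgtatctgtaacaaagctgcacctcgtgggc
In the files' own build, hg19, the gene spans are chr16:23688977-23701688 for PLK1, chr1:43824626-43828874 for CDC20, chr7:36429415-36493400 for ANLN and chr5:137514408-137523404 for KIF20A (1-based). Those of AURKA and MAD2L1 are chr20:54944445-54967393 and chr4:120980577-120988229. In PLK1 and CCNB2 the TTTGAA match begins 29 bases before the start. The 3 downstream CCAAT boxes of CCNB2 are 33 bases apart, first base to first base.

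As a set, the 40 genes were highest in GFP cells in normal growth and lowest in G13R cells after serum. Their summed level was 2747 and 2889 FPKM in the GFP normal libraries, 2255 and 2583 in GFP serum, 2176 and 2302 in G13R normal, and 1958 and 2064 in G13R serum. As a share of all FPKM in the library these were 0.506 and 0.516%, 0.440 and 0.479%, 0.438 and 0.445%, and 0.392 and 0.407%. The G13R libraries therefore lay below the GFP libraries of the same condition, with no overlap. The highest group mean was in GFP normal cells for 31 of the 40 genes and in GFP serum cells for the other 9, where 32.0% and 35.3% of all 12996 genes tested had theirs. The lowest group mean was in G13R serum cells for 33 genes, against 19.7% of all genes. Within groups the members also shifted together: replicate 2 was above replicate 1 for 30 genes in G13R normal, 30 in G13R serum, 29 in GFP normal and 36 in GFP serum, against 52.5 to 58.2% of all genes. The 40 genes are therefore not 40 independent measurements of a condition.

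**Figure D1:**
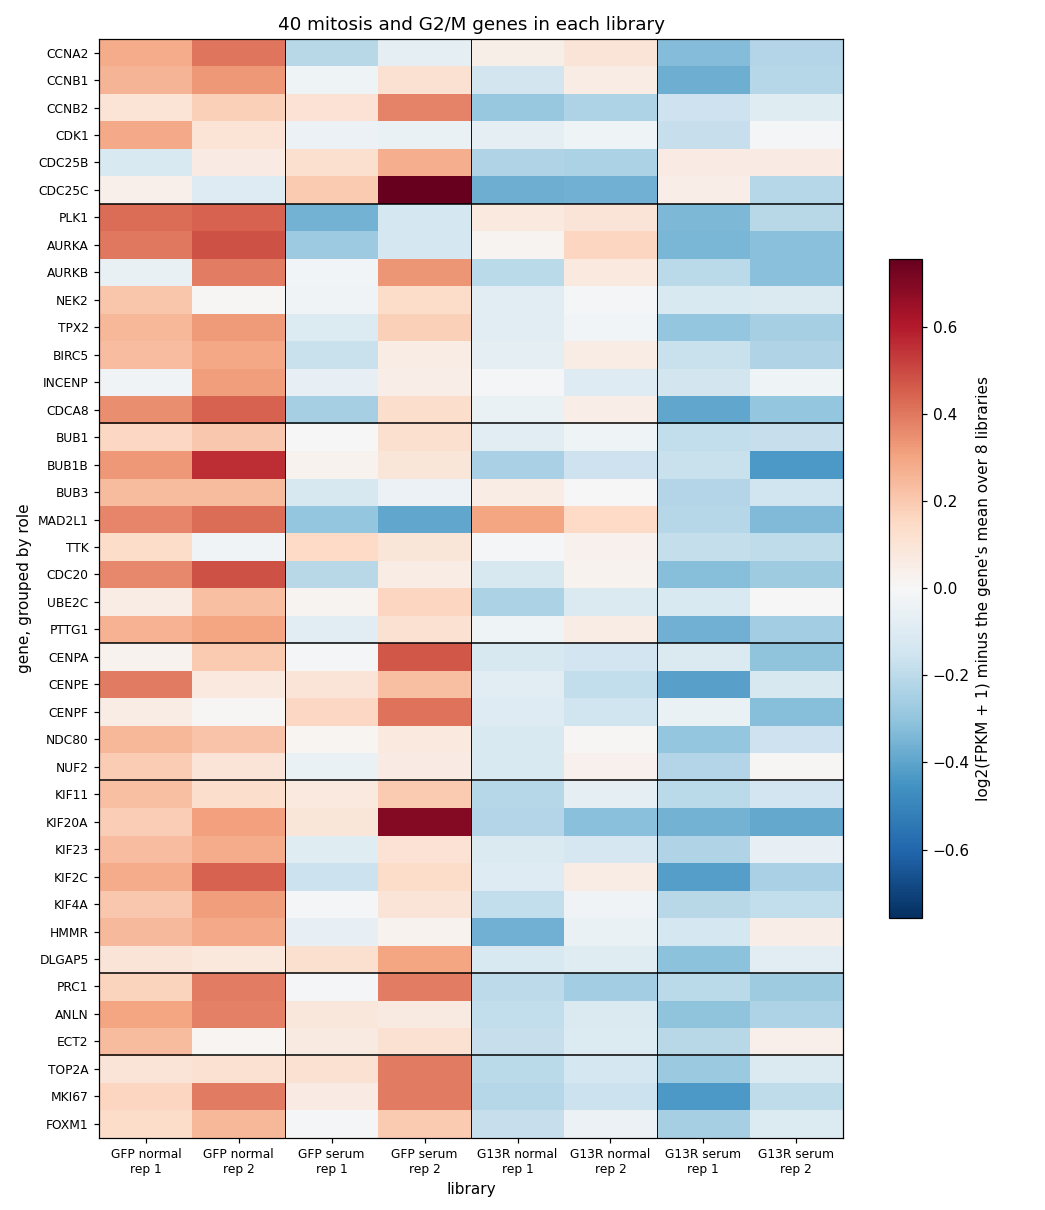
Each row is 1 gene and each column 1 library, and colour is the gene's log2(FPKM + 1) minus its mean over the 8 libraries, with black lines between groups and between roles. The 2 GFP normal columns are mostly red and the 2 G13R serum columns mostly blue, where the lowest group mean was found for 33 of the 40 genes.

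In normal growth, the 2 kinds of cell were compared as G13R cells minus GFP cells. With GFP as the only control, the mutation, the overexpression of actin and a difference between cell populations cannot be told apart. Estimates are log2 fold changes on the log2(FPKM + 1) scale with their SE, and a gene is called when limma's Benjamini-Hochberg adjusted p over all 12996 genes is under 0.05. All 40 estimates were below 0 in G13R cells, from -0.64 for BUB1B to -0.05 for TTK, with a median of -0.31. Among all genes 64.0% of estimates were below 0 and 36.0% above it, and the median was -0.07, and 39 of the 40 lay below that median. Both G13R libraries lay below both GFP libraries for 37 of the 40 genes (92.5%), where 34.3% of all genes did so. The 3 that overlapped were AURKB, INCENP and TTK. Yet no member was called, where 6 of all genes were (0.0462%, with 0.0385% higher and 0.00769% lower), and at an unadjusted p under 0.05 there were 29 lower (72.5%, against 11.8% of all genes) and 0 higher (against 3.34%). The median of the 40 was -0.23 under median-ratio scaling and -0.19 under quantile normalization, and 39 of the 40 estimates were below 0 in each. Under these scalings 35 and 31 of the 40 lay lower with no overlap, against 23.9% and 22.5% of all genes. The medians and signs of all genes under them are not given here. ANLN, BUB1B and CDC20 came closest to the threshold, with adjusted p of 0.0692, 0.094 and 0.117. Without GFP serum replicate 1, and likewise without GFP serum replicate 2, which enter this comparison only through the shared spread, 3 members were called lower (7.5%, against 0.567% and 0.653% of all genes).

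After serum, 39 of the 40 estimates for G13R against GFP cells were below 0 and 1 above it, against 55.0% and 45.0% of all genes. Their median was -0.28 and that of all genes -0.03. They ran from -0.76 for KIF20A to 0.07 for MAD2L1, the only member above 0. Both G13R libraries lay below both GFP libraries for 32 of the 40 (80.0%, against 29.4% of all genes), and the 8 that overlapped were CDK1, PLK1, BIRC5, INCENP, MAD2L1, NUF2, KIF23 and HMMR. No member was called, where 107 of all genes were (0.823%, with 0.331% higher and 0.492% lower). At an unadjusted p under 0.05, 22 were lower (55.0%, against 12.2% of all genes) and 0 higher (against 8.63%). Under median-ratio scaling and quantile normalization 37 and 38 of the 40 estimates were below 0, and the signs of all genes under them are not given here. Then 31 and 32 of the 40 lay lower with no overlap, against 25.8% and 25% of all genes. KIF20A, ANLN and TOP2A came closest, with adjusted p of 0.0614, 0.0658 and 0.0713. This count rested on 1 library. Without GFP serum replicate 1, members were called, all lower and in a larger share than all genes. Their estimates then ran from -1.06 for KIF20A to 0.12 for MAD2L1. Without GFP serum replicate 2, neither the members nor more than a few of all genes were called, and the median of the 40 was -0.17. GFP serum replicate 2, the GFP serum library left in the first of these fits, was itself far from the others. It was the highest of the 8 libraries for 27.6% of all genes. It was the lowest for 20.4%, a share that G13R normal replicate 1 nearly matched (20.2%). GFP serum replicate 2 lay above GFP serum replicate 1 for 36 of the 40 members. In 30 of the 40 genes (75%) the G13R libraries were lower with no overlap in both conditions, against 13.6% of all genes, and the 2 comparisons share no library. Across the 40 genes the 2 sets of estimates had Pearson's r = 0.313 and Spearman's rho = 0.270, against 0.179 and 0.205 across all genes.

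**Figure D2:**
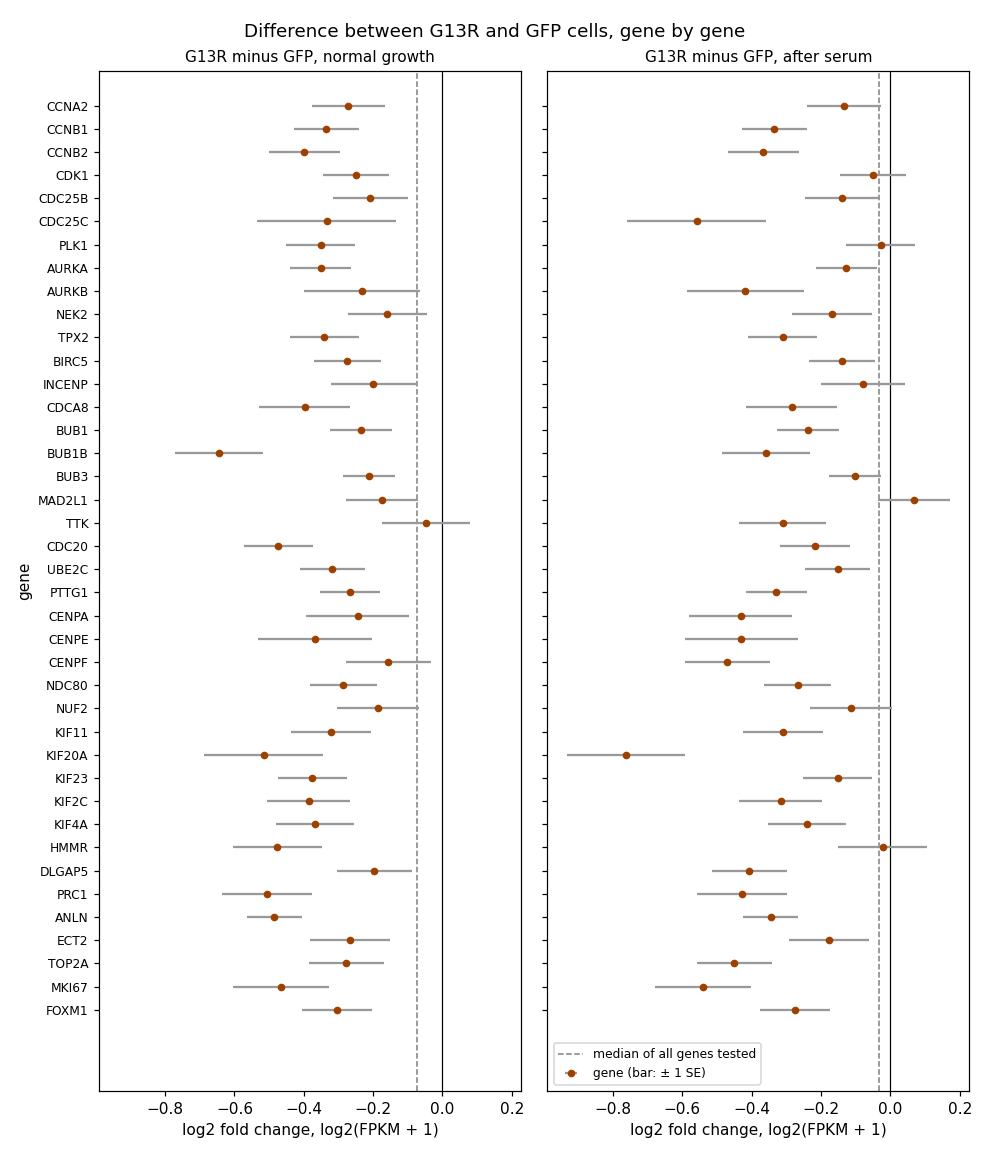
Points are log2 fold changes of G13R against GFP cells for each gene in normal growth (left) and after serum (right), with bars of 1 SE either side, and the dashed line is the median of all genes tested. All 40 points in normal growth and 39 of 40 after serum lie to the left of 0, between -0.76 and -0.05 apart from MAD2L1, HMMR and PLK1 near 0 after serum.

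The serum response of GFP cells, serum minus normal growth, was a fall in part of the set. Of the 40 genes 12 fell (30%, against 15.7% of all genes) and 0 rose (against 14.9%, so that 30.7% of all genes were called in either direction), with a median estimate of -0.15 over the 40 and 0.01 over all genes. Estimates were below 0 for 31 members and above 0 for 9, against 49.1% and 50.9% of all genes. Those that fell were MAD2L1, PLK1, AURKA, CDC20, CCNA2, CDCA8, BUB1B, KIF2C, BIRC5, BUB3, PTTG1 and ANLN. Both serum libraries lay below both normal libraries for 21 genes (52.5%, against 33.0%) and above them for 4, CDC25B, CDC25C, CENPF and DLGAP5 (10%, against 33.3%). Under quantile normalization these counts were 16 lower (against 35.7% of all genes) and 7 higher (against 29.5%), and under median-ratio scaling 21 (against 33.4%) and 5 (against 33.1%). The calls of MAD2L1, PLK1, AURKA and CDC20 held in all 16 other settings tried, and that of CCNA2 in all but 1. The other 7 were each lost in 4 to 11 settings. Leaving out GFP normal replicate 1 brought the count of 12 to 5 (12.5%, against 8.78% of all genes lower), and leaving out GFP normal replicate 2 brought it to 4 (10%, against 9.67%). With GFP serum replicate 1 left out, fewer of the 12 were called lower, a share near that of all genes called lower. CDC25C, CENPA and KIF20A were then called higher, a smaller share than that of all genes called higher. The members' share of falls was thus near that of all genes in some of these settings, as it was under quantile normalization (15%, against 14.8%) and without the intensity trend (12.5%, against 12.6%).

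In G13R cells 4 of the 40 genes fell after serum (10%, against 4.62% of all genes), namely MAD2L1, AURKA, PLK1 and PTTG1, and 0 rose (against 8.26%). The median estimate was -0.10, and 0.04 over all genes. Estimates were below 0 for 34 members and above 0 for 6, against 44.5% and 55.5% of all genes. All 4 were among the 12 that fell in GFP cells, which is 4 of 4 and 4 of 12. In GFP cells 15.7% of all genes fell, and the overlap of calls over all genes is not given here. Both serum libraries lay below both normal libraries for 19 genes (47.5%, against 26.4%) and above them for 3, CCNB2, CDC25B and CDC25C (7.5%, against 34.3%). Over the 16 other settings the estimate ran from -0.57 to -0.42 for MAD2L1 and from -0.49 to -0.35 for AURKA. For PLK1 it ran from -0.42 to -0.29 and for PTTG1 from -0.38 to -0.25. All 4 calls were lost on leaving out either G13R serum library. PLK1 and PTTG1 also lost theirs without any 1 of the normal libraries, AURKA without G13R normal replicate 2 and MAD2L1 without G13R normal replicate 1. In all of these fits the share of all genes called lower dropped too. Under quantile normalization 23 members were lower with no overlap (against 33.4% of all genes) and under median-ratio scaling 25 (against 31.3%). The serum responses of the 2 kinds of cell share no library, and across the 40 genes they had Pearson's r = 0.754 and Spearman's rho = 0.667, against 0.687 and 0.694 across all genes. In 16 of the 40 (40%, against 19.3%) serum libraries were lower with no overlap in both.

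**Figure D3:**
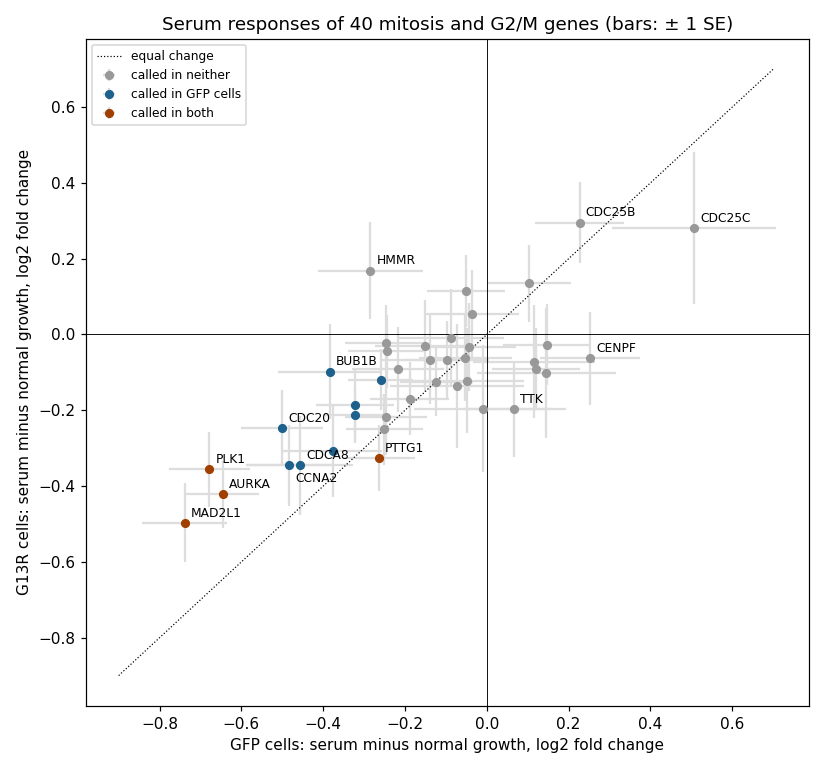
Each point is 1 gene, with the serum log2 fold change in GFP cells on the x axis, that in G13R cells on the y axis, bars of 1 SE and a dotted line of equal change. MAD2L1, PLK1, AURKA and PTTG1 are called in both kinds of cell, 8 more genes are called in GFP cells, and CDC25B and CDC25C lie to the upper right.

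Whether the serum response differed between the cells was tested as the difference of the responses, G13R minus GFP. By limma, 0 of the 40 members and 0 of all 12996 genes were called (0%), and at an unadjusted p under 0.05 there were 2 members higher, HMMR and PLK1, and 0 lower, where 7.69% and 4.11% of all genes were. The members' median was 0.07 and that of all genes 0.04. Estimates were above 0 for 27 members and below 0 for 13, against 56.1% and 43.9% of all genes. HMMR, which encodes a spindle-binding hyaluronan receptor, had the largest estimate (0.45 ± 0.18, adjusted p = 0.385), and PLK1 followed (0.32 ± 0.14, adjusted p = 0.412). CENPF had the lowest (-0.32 ± 0.17, adjusted p = 0.504). A missed threshold does not show that the responses were equal, and with 2 libraries a group an SE of 0.18 on the log2 scale limits what could be told apart for HMMR.

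**Figure D4:**
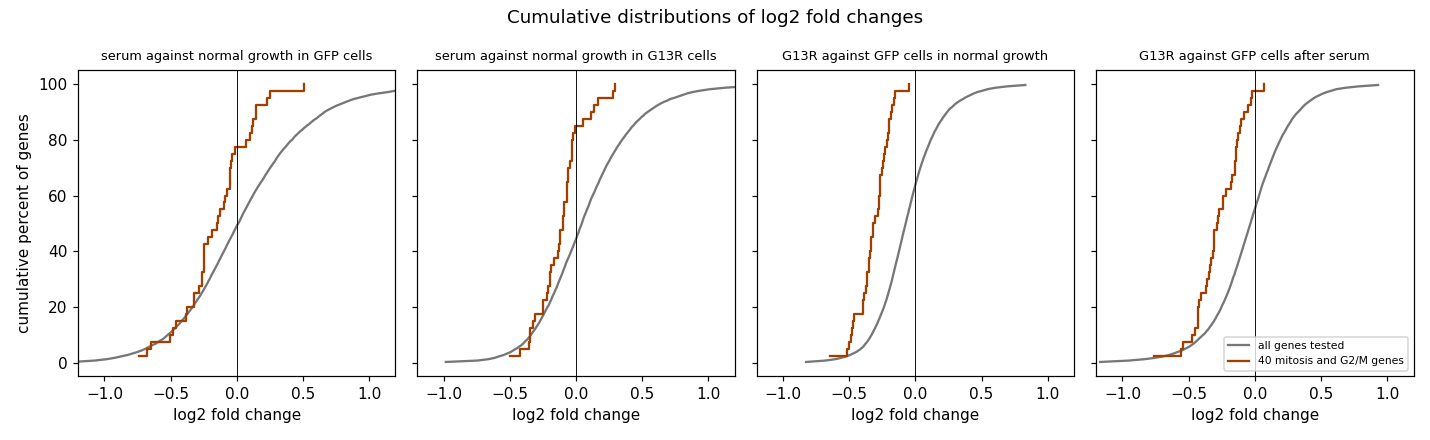
Cumulative percent of genes (y axis) against log2 fold change (x axis) for the 40 genes (brown steps) and all genes tested (grey) in 4 comparisons. The brown curve is narrow in both serum responses, and in both G13R comparisons it lies to the left of the grey curve, with medians of -0.31 and -0.28 against -0.07 and -0.03.

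Among the 6 genes for cyclins, CDK1 and its activating phosphatases, CCNA2 alone was called. This was a fall after serum in GFP cells (1 of 6, 16.7%), a share near the 15.7% of all genes that fell. CCNA2, the A-type cyclin of S phase and G2, stood at 33.4 and 36.5 FPKM in the GFP normal libraries, 23.5 and 25.9 in GFP serum, 28.2 and 29.3 in G13R normal and 21.5 and 23.3 in G13R serum. It fell after serum in GFP cells by 0.48 ± 0.11 on the log2 scale (adjusted p = 0.00754), but not past the threshold without GFP normal replicate 2 (adjusted p = 0.0597). In G13R cells the estimate was -0.35 ± 0.11 (adjusted p = 0.0586), and the serum libraries lay below the normal ones with no overlap in both kinds of cell. The CCNA2 span overlaps that of EXOSC9 by 578 bases, and the sources used here do not give whether counting used strand.

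CCNB1, the main mitotic cyclin and the most abundant member, stood at 234 and 246 FPKM in the GFP normal libraries, 192 and 212 in GFP serum, 178 and 203 in G13R normal and 151 and 169 in G13R serum. Its G13R libraries lay below the GFP libraries in both conditions, with estimates of -0.34 ± 0.09 and -0.33 ± 0.09 (adjusted p = 0.172 and 0.1), and its serum estimates were -0.25 ± 0.09 in GFP and -0.25 ± 0.09 in G13R cells. CDK1, the kinase they activate, stood at 78.2 and 68.8 FPKM in the GFP normal libraries, 61.8 and 61.7 in GFP serum, 60.7 and 62.5 in G13R normal and 56.4 and 63.1 in G13R serum. The 6 libraries outside GFP normal lay between 56.4 and 63.1 FPKM for CDK1, and both GFP normal libraries stood above them (-0.25 ± 0.10 in normal growth, adjusted p = 0.261). CCNB2, the Golgi-associated B-type cyclin, ranged from 47.3 to 75.2 FPKM and was lower in G13R cells with no overlap in both conditions.

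Both phosphatases that switch CDK1 on had serum estimates above 0. CDC25B stood at 25.3 and 28.7 FPKM in the GFP normal libraries, 30.0 and 33.5 in GFP serum, 23.3 and 23.1 in G13R normal and 28.7 and 28.7 in G13R serum. Both serum libraries were above both normal libraries in each kind of cell, by 0.23 ± 0.11 in GFP and 0.30 ± 0.11 in G13R cells, without passing (adjusted p = 0.137 and 0.0999). CDC25C, the member with the lowest level, stood at 6.43 and 5.77 FPKM in the GFP normal libraries, 7.30 and 11.2 in GFP serum, 4.62 and 4.64 in G13R normal and 6.49 and 5.24 in G13R serum. Its serum estimates were 0.51 ± 0.20 and 0.28 ± 0.20, and after serum it was -0.56 ± 0.20 in G13R against GFP cells (adjusted p = 0.158). GFP serum replicate 2 was the highest library for CDC25C and lay well above GFP serum replicate 1, and FAM53C overlaps 6421 bases of its span.

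The list of mitotic kinase and chromosomal passenger genes held 8 genes and included TPX2. The kinases TTK and BUB1 were counted with the spindle checkpoint instead. Of these 8 genes, 4 fell after serum in GFP cells (50%, against 15.7% of all genes) and 2 in G13R cells (25%, against 4.62%). PLK1, the Polo kinase of mitotic entry and spindle assembly, stood at 77.2 and 78.5 FPKM in the GFP normal libraries, 44.6 and 52.3 in GFP serum, 60.4 and 61.3 in G13R normal and 45.2 and 49.6 in G13R serum. It fell by 0.68 ± 0.10 in GFP cells (adjusted p = 0.000996) and by 0.36 ± 0.10 in G13R cells (adjusted p = 0.0426), and the latter call was lost in 8 of 16 settings. In normal growth both G13R libraries were below both GFP libraries (-0.35 ± 0.10, adjusted p = 0.176), while after serum the 2 kinds of cell overlapped (-0.03 ± 0.10). AURKA, the centrosomal Aurora kinase, stood at 126 and 134 FPKM in the GFP normal libraries, 78.6 and 86.8 in GFP serum, 96.7 and 107 in G13R normal and 74.8 and 76.4 in G13R serum. It fell by 0.65 ± 0.09 in GFP cells (adjusted p = 0.000701) and by 0.42 ± 0.09 in G13R cells (adjusted p = 0.0138), the latter lost in 4 settings, and G13R libraries were below GFP libraries in both conditions. TPX2, which activates AURKA on spindle microtubules, had serum estimates of -0.25 ± 0.10 and -0.22 ± 0.10 and was lower in G13R cells with no overlap in both conditions (-0.34 ± 0.10 and -0.31 ± 0.10).

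The chromosomal passenger complex joins AURKB with INCENP, BIRC5 and CDCA8 at centromeres. AURKB, its kinase, stood at 34.5 and 47.3 FPKM in the GFP normal libraries, 35.4 and 45.5 in GFP serum, 31.0 and 37.8 in G13R normal and 31.0 and 28.6 in G13R serum. The 2 GFP normal libraries of AURKB were themselves far apart, and no comparison passed, with the largest estimate in G13R against GFP cells after serum (-0.42 ± 0.17, adjusted p = 0.198). CDCA8, which encodes borealin, stood at 41.8 and 44.8 FPKM in the GFP normal libraries, 27.2 and 35.8 in GFP serum, 31.5 and 33.8 in G13R normal and 24.5 and 26.4 in G13R serum. It fell after serum in GFP cells by 0.46 ± 0.13 (adjusted p = 0.0242), and the G13R estimate was -0.34 ± 0.13 (adjusted p = 0.11). BIRC5, which encodes survivin, stood at 114 and 119 FPKM in the GFP normal libraries, 85.7 and 100.3 in GFP serum, 91.5 and 100.4 in G13R normal and 85.9 and 82.4 in G13R serum. It fell by 0.32 ± 0.10 in GFP cells after serum (adjusted p = 0.0289). These 2 calls were lost on leaving out either GFP normal library or the first GFP serum library, with adjusted p up to 0.121 for CDCA8 and 0.134 for BIRC5. INCENP, the scaffold, ranged from 37.1 to 51.2 FPKM. NEK2, a centrosome-splitting kinase, stood at 27.7 and 24.0 FPKM in the GFP normal libraries, 23.4 and 26.3 in GFP serum, 22.4 and 23.6 in G13R normal and 21.9 and 22.0 in G13R serum. Its estimates in G13R against GFP cells were -0.16 ± 0.11 in normal growth and -0.17 ± 0.11 after serum. Neither INCENP nor NEK2 was called in any comparison.

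Among the 8 genes of the spindle checkpoint and its release, 5 fell after serum in GFP cells (62.5%, against 15.7% of all genes) and 2 in G13R cells (25%, against 4.62%). MAD2L1, which encodes the MAD2 protein that inhibits CDC20, stood at 39.6 and 41.1 FPKM in the GFP normal libraries, 24.6 and 22.9 in GFP serum, 37.6 and 33.8 in G13R normal and 26.0 and 23.9 in G13R serum. It had the largest falls of the 40 genes in both kinds of cell, 0.74 ± 0.10 in GFP (adjusted p = 0.000807) and 0.50 ± 0.10 in G13R cells (adjusted p = 0.0138). The G13R call was lost without G13R normal replicate 1 or either G13R serum library (adjusted p up to 0.107). Every serum library of MAD2L1 lay between 22.9 and 26.0 FPKM, so G13R and GFP cells overlapped there. CDC20, the coactivator of the anaphase-promoting complex, stood at 203 and 220.1 FPKM in the GFP normal libraries, 136 and 164 in GFP serum, 145 and 160.1 in G13R normal and 126 and 131 in G13R serum. It fell by 0.50 ± 0.10 in GFP cells after serum (adjusted p = 0.00486), and in normal growth the G13R estimate was -0.47 ± 0.10 (adjusted p = 0.117).

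BUB1B, which encodes the checkpoint kinase-like protein BUBR1, stood at 31.7 and 37.2 FPKM in the GFP normal libraries, 25.5 and 26.7 in GFP serum, 20.9 and 22.3 in G13R normal and 22.1 and 18.3 in G13R serum. Its GFP normal libraries were the highest, and the G13R estimate in normal growth was the lowest of the set (-0.64 ± 0.13, adjusted p = 0.094). BUB1B fell after serum in GFP cells by 0.38 ± 0.13 (adjusted p = 0.0424), a call lost without any 1 of the GFP or G13R normal libraries and without either GFP serum library (adjusted p up to 0.238). BUB3, the partner of BUB1 and BUBR1, stood at 159 and 159 FPKM in the GFP normal libraries, 124 and 130.3 in GFP serum, 140.0 and 134 in G13R normal and 115 and 121 in G13R serum. BUB3 fell by 0.32 ± 0.07 in GFP cells (adjusted p = 0.0097), lost without either GFP normal library (adjusted p up to 0.107), and had an estimate of -0.21 ± 0.07 in G13R cells (adjusted p = 0.0915). PTTG1, which encodes securin, the inhibitor of separase, stood at 197 and 201 FPKM in the GFP normal libraries, 154 and 178 in GFP serum, 160.5 and 171 in G13R normal and 127 and 137 in G13R serum. PTTG1 fell after serum by 0.26 ± 0.09 in GFP cells (adjusted p = 0.0441) and by 0.33 ± 0.09 in G13R cells (adjusted p = 0.0377). The GFP call was lost in 11 settings, among them leaving out any library but GFP serum replicate 2, and the G13R call in 8.

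The remaining checkpoint genes were not called. TTK, the MPS1 kinase, stood at 12.6 and 11.2 FPKM in the GFP normal libraries, 12.8 and 12.2 in GFP serum, 11.2 and 11.6 in G13R normal and 9.90 and 9.81 in G13R serum. It was the member whose G13R and GFP libraries differed least in normal growth (-0.05 ± 0.13), while after serum both G13R libraries were lower (-0.31 ± 0.13, adjusted p = 0.2). UBE2C, the ubiquitin-conjugating enzyme of the anaphase-promoting complex, ranged from 116 to 161 FPKM with serum estimates near 0 (-0.05 ± 0.09 and 0.11 ± 0.09). BUB1, the kinetochore kinase, ranged from 39.7 to 52.3 FPKM and was lower in G13R cells with no overlap in both conditions.

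**Figure D5:**
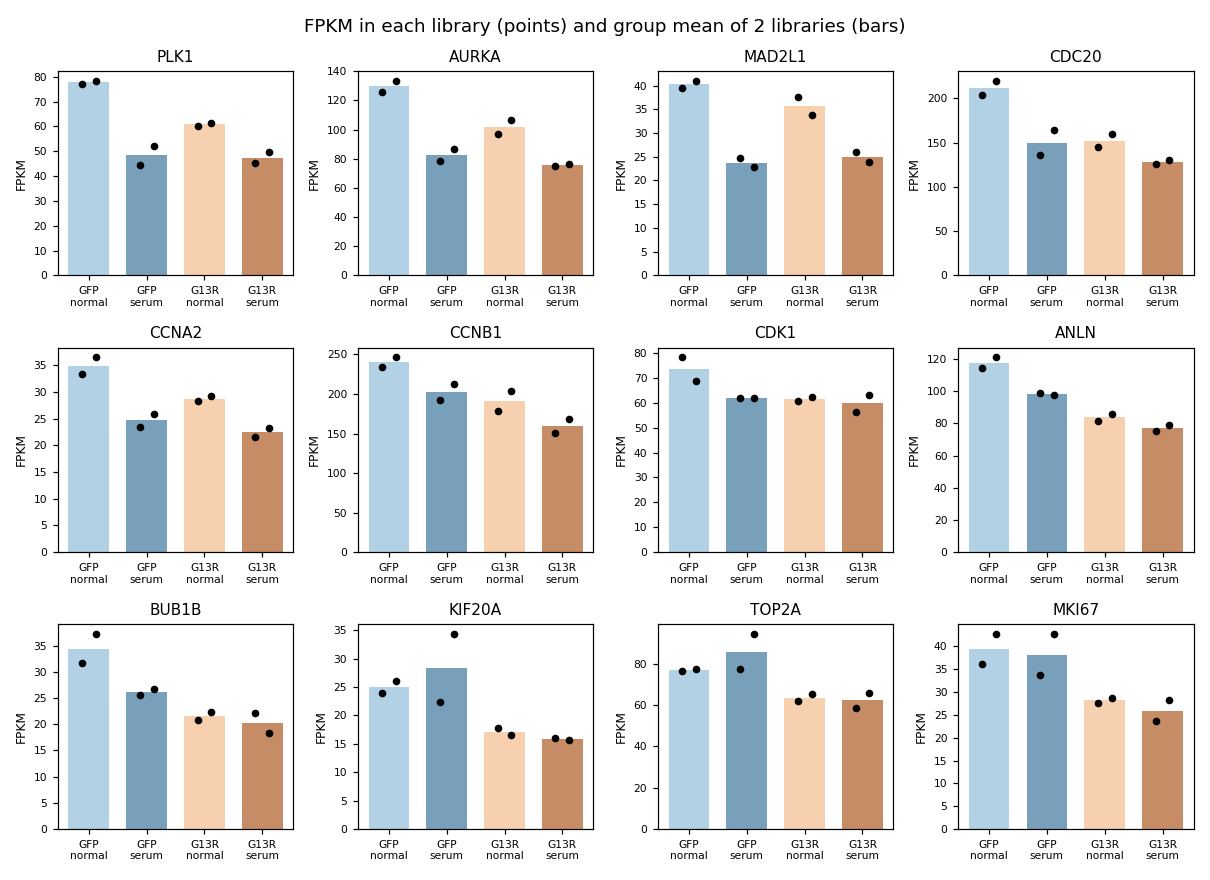
FPKM of 12 genes, with points for the 2 libraries of each group and bars for their mean, each axis from 0. PLK1, AURKA, MAD2L1, CDC20 and CCNA2 drop with serum in GFP cells, ANLN and BUB1B are lowest in the G13R groups, and KIF20A has its highest library, 34.3 FPKM, in GFP serum replicate 2.

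None of the 5 centromere and kinetochore genes was called in any comparison. CENPF, a large kinetochore protein of G2 and mitosis, stood at 34.8 and 33.6 FPKM in the GFP normal libraries, 37.4 and 44.7 in GFP serum, 31.2 and 30.0 in G13R normal and 32.3 and 26.5 in G13R serum. Its GFP libraries were higher with serum and its G13R libraries overlapped, and after serum G13R cells were lower (-0.47 ± 0.12, adjusted p = 0.0847). CENPA, the centromeric histone H3 variant, ranged from 35.3 to 60.9 FPKM, with its highest value in GFP serum replicate 2. CENPE, a kinetochore motor, ranged from 6.79 to 12.6 FPKM, and NDC80 and NUF2, which form the microtubule-binding arm of the NDC80 complex, from 33.1 to 48.6 and from 22.0 to 29.6. All 5 lay lower in G13R cells in normal growth with no overlap (against 34.3% of all genes), and 4 of the 5 after serum (against 29.4%), NUF2 being the exception. Their medians in G13R against GFP cells were -0.24 in normal growth and -0.43 after serum, and those of all genes -0.07 and -0.03.

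Of the 7 kinesin and spindle genes 1 fell after serum in GFP cells (14.3%, against 15.7% of all genes). KIF2C, which encodes the microtubule-depolymerising kinesin MCAK, stood at 82.1 and 91.9 FPKM in the GFP normal libraries, 60.0 and 74.0 in GFP serum, 62.7 and 69.9 in G13R normal and 50.2 and 56.6 in G13R serum. It fell by 0.38 ± 0.12 in GFP cells (adjusted p = 0.0378), lost without G13R serum replicate 2, either GFP normal library or GFP serum replicate 1 (adjusted p up to 0.193). KIF20A, a kinesin of the central spindle, stood at 23.9 and 26.1 FPKM in the GFP normal libraries, 22.3 and 34.3 in GFP serum, 17.7 and 16.6 in G13R normal and 16.1 and 15.7 in G13R serum. The 4 G13R libraries lay below the 4 GFP libraries, with estimates of -0.52 ± 0.17 without serum (adjusted p = 0.215) and -0.76 ± 0.17 with it (adjusted p = 0.0614). The latter was called in 3 of 16 settings, namely without GFP serum replicate 1 (-1.06, adjusted p = 0.00146), with a filter at 5 FPKM and with the replicate block. KIF20A overlaps BRD8 by 268 bases and CDC23 by 66, and BRD8 reached 69.8 FPKM. HMMR stood at 28.4 and 29.2 FPKM in the GFP normal libraries, 22.7 and 24.2 in GFP serum, 18.2 and 22.8 in G13R normal and 21.6 and 24.6 in G13R serum. The GFP libraries of HMMR were lower with serum and the G13R libraries overlapped (-0.28 ± 0.13 and 0.17 ± 0.13).

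The other spindle genes were KIF11, the bipolar spindle motor (15.4 to 21.3 FPKM), KIF23, a centralspindlin motor (48.1 to 68.6), KIF4A, a chromokinesin (18.3 to 26.7), and DLGAP5, which stabilises kinetochore fibres (31.3 to 48.3). None of them passed in any comparison. All 7 of the group were lower in G13R cells in normal growth with no overlap (against 34.3% of all genes), and 5 after serum (against 29.4%). Their medians were -0.38 and -0.31, against -0.07 and -0.03 over all genes.

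The 3 cytokinesis genes had the lowest median of the 7 roles in normal growth, -0.49 in G13R against GFP cells. ANLN, which encodes anillin, the actin-binding scaffold of the contractile ring, stood at 114 and 121 FPKM in the GFP normal libraries, 98.6 and 97.3 in GFP serum, 81.5 and 85.8 in G13R normal and 74.9 and 78.9 in G13R serum. Its G13R libraries lay below its GFP libraries in both conditions, by -0.49 ± 0.08 without serum (adjusted p = 0.0692) and -0.35 ± 0.08 with it (adjusted p = 0.0658), and both were called in some settings (4 and 2 of 16). ANLN fell after serum in GFP cells by 0.26 ± 0.08 (adjusted p = 0.0331), a call lost in 8 settings, among them leaving out either GFP normal library, either G13R serum library or GFP serum replicate 2 (adjusted p up to 0.212). PRC1, which bundles midzone microtubules, stood at 73.3 and 85.4 FPKM in the GFP normal libraries, 64.6 and 85.6 in GFP serum, 56.7 and 54.1 in G13R normal and 56.3 and 53.8 in G13R serum. Its 4 G13R libraries lay between 53.8 and 56.7 FPKM, below all 4 GFP libraries, with G13R estimates in the 2 conditions of -0.51 ± 0.13 and -0.43 ± 0.13. ECT2, the exchange factor that activates RhoA at the cleavage furrow, ranged from 34.0 to 46.8 FPKM with serum estimates near 0 (-0.04 ± 0.12 and 0.06 ± 0.12).

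TOP2A, MKI67 and FOXM1 did not respond to serum past the threshold in either kind of cell, and all 3 had lower G13R libraries with no overlap in both conditions. TOP2A, the DNA topoisomerase that untangles sister chromatids, stood at 76.6 and 77.5 FPKM in the GFP normal libraries, 77.4 and 94.2 in GFP serum, 61.8 and 65.1 in G13R normal and 58.7 and 66.0 in G13R serum. G13R cells differed from GFP cells by -0.28 ± 0.11 in normal growth (adjusted p = 0.266) and by -0.45 ± 0.11 after serum (adjusted p = 0.0713). MKI67, which encodes the proliferation antigen Ki-67, stood at 36.2 and 42.6 FPKM in the GFP normal libraries, 33.7 and 42.7 in GFP serum, 27.6 and 28.7 in G13R normal and 23.6 and 28.2 in G13R serum. The corresponding estimates were -0.47 ± 0.14 and -0.54 ± 0.14 (adjusted p = 0.183 and 0.0843). FOXM1, the forkhead factor that activates many of these genes, stood at 87.6 and 94.8 FPKM in the GFP normal libraries, 79.2 and 91.5 in GFP serum, 70.3 and 77.1 in G13R normal and 66.7 and 73.9 in G13R serum. It was -0.30 ± 0.10 in normal growth and -0.27 ± 0.10 after serum in G13R against GFP cells, and its serum estimates were -0.10 ± 0.10 and -0.07 ± 0.10. The FOXM1 span overlaps RHNO1 and ITFG2, which reached 42.2 and 16.8 FPKM.

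Further genes of mitosis were read from 7 lists with 113 names, of which 111 were matched and tested. In GFP cells after serum 20 of the 111 fell (18%, against 15.7% of all genes) and 6 rose (against 14.9%). In G13R cells 6 fell (5.41%, against 4.62%) and 4 rose (against 8.26%), so the shares that fell were near those of all genes. None was called between G13R and GFP cells in either condition, with 34 lower (30.6%, against 11.8% of all genes) and 2 higher (against 3.34%) at an unadjusted p under 0.05 in normal growth. After serum 28 were lower (25.2%, against 12.2%) and 7 higher (against 8.63%). Their median in G13R against GFP cells was -0.18 in normal growth, where 93 of 111 estimates were below 0 (83.8%, against 64.0% of all genes), and -0.16 after serum, where 83 were (74.8%, against 55.0%).

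The 13 DREAM and MuvB genes held the regulators. RBL2, which encodes p130, the pocket protein of DREAM in quiescent cells, rose after serum from 7.06 ± 0.295 to 14.1 ± 0.490 FPKM in GFP cells (0.91 ± 0.15, adjusted p = 0.00179) and from 7.06 ± 1.37 to 12.2 ± 0.144 in G13R cells (0.72 ± 0.15, adjusted p = 0.013). MYBL2, the activator that replaces it, fell in GFP cells from 144 ± 12.5 to 104 ± 4.78 FPKM (-0.46 ± 0.09, adjusted p = 0.00329) and just missed the threshold in G13R cells (-0.29 ± 0.09, adjusted p = 0.0502). E2F4, the E2F subunit of DREAM, fell in both (-0.53 ± 0.08 and -0.31 ± 0.08, adjusted p = 0.00137 and 0.0375). The MuvB subunit gene LIN52 fell in both (-0.60 ± 0.14 and -0.51 ± 0.14, adjusted p = 0.00925 and 0.0378), and LIN9, another subunit gene, was not called (-0.37 ± 0.19 and -0.13 ± 0.19). Altogether GFP cells had 1 rise (against 14.9% of all genes) and 3 falls (23.1%, against 15.7%) among the 13, and G13R cells 1 rise (against 8.26%) and 2 falls (15.4%, against 4.62%).

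Of 16 genes of mitotic entry control and the G2 checkpoint, GFP cells had 3 rises (against 14.9% of all genes) and 4 falls (25%, against 15.7%), and G13R cells 3 rises (against 8.26%) and 1 fall (6.25%, against 4.62%). CDKN1A, which encodes the CDK inhibitor p21, rose after serum from 110.3 ± 4.26 to 183 ± 25.9 FPKM in GFP cells (0.72 ± 0.10, adjusted p = 0.000797) and from 95.8 ± 4.76 to 146 ± 5.14 in G13R cells (0.60 ± 0.10, adjusted p = 0.00547). SFN, which encodes 14-3-3 sigma, a protein that holds CDK1 and cyclin B in the cytoplasm, rose in both (0.47 ± 0.09 and 0.91 ± 0.09, adjusted p = 0.00424 and 0.000382). WEE1, the inhibitory kinase of CDK1, rose in GFP cells (0.36 ± 0.11, adjusted p = 0.0285) and had an estimate of -0.01 ± 0.11 in G13R cells. CKS1B and CKS2, which encode small CDK-binding subunits, fell in GFP cells (-0.53 ± 0.08 and -0.53 ± 0.09), and CKS2 also in G13R cells (-0.41 ± 0.09, adjusted p = 0.0146). All 16 estimates for G13R against GFP cells in normal growth were below 0 (against 64.0% of all genes), with a median of -0.17 (against -0.07), and none was called. After serum 10 of the 16 were below 0 (62.5%, against 55.0%) and 6 above it, with a median of -0.09 (against -0.03). There 5 were lower with no overlap (31.2%, against 29.4%) and 5 higher (31.2%, against 22.6%).

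Of the 17 genes of the anaphase-promoting complex 5 fell in GFP cells (29.4%, against 15.7% of all genes) and 1 in G13R cells (5.88%, against 4.62%). UBE2S, the enzyme that elongates its ubiquitin chains, fell from 366 ± 4.78 to 200.1 ± 3.66 FPKM in GFP cells (-0.87 ± 0.08, adjusted p = 0.000107) and from 313 ± 16.1 to 234 ± 21.7 in G13R cells (-0.42 ± 0.08, adjusted p = 0.0101). ANAPC1, its largest subunit, fell in GFP cells (-0.68 ± 0.13, adjusted p = 0.00333), while FZR1, the G1 coactivator CDH1, stood between 21.0 ± 2.84 and 21.7 ± 0.536 FPKM in the 4 group means. In G13R against GFP cells the 17 genes had a median of -0.11 in normal growth and 0.03 after serum, against -0.07 and -0.03 over all genes. After serum 6 of them were higher with no overlap (35.3%, against 22.6% of all genes) and 3 lower (17.6%, against 29.4%). Among the 8 condensin genes 1 fell in GFP cells (12.5%, against 15.7% of all genes), NCAPH (-0.32 ± 0.10). In G13R cells 1 of the 8 fell (12.5%, against 4.62%), NCAPG2 (-0.44 ± 0.11). Of the 15 cohesin genes 1 fell in GFP cells (6.67%, against 15.7%), CDCA5, which encodes sororin (-0.52 ± 0.12).

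Of 24 other kinetochore and centromere genes 4 fell (16.7%, against 15.7% of all genes) and 1 rose (against 14.9%) in GFP cells, and 1 fell in G13R cells (4.17%, against 4.62%), shares of falls near those of all genes. MIS18A, needed to load CENPA, fell in GFP cells (-0.49 ± 0.11, adjusted p = 0.00684), SKA3 fell in both (-0.51 ± 0.13 and -0.48 ± 0.13), and the NDC80 complex gene SPC24 rose in GFP cells (0.52 ± 0.16, adjusted p = 0.0359). Of 18 other spindle, centriole and cytokinesis genes 2 fell in GFP cells (11.1%, against 15.7% of all genes), the kinesin gene KIF18B (-0.41 ± 0.13) and the spindle gene TACC3 (-0.27 ± 0.09), and 1 rose, CIT, which encodes citron kinase (0.58 ± 0.14, adjusted p = 0.0108). These 18 genes were the list nearest to the 40 in G13R against GFP cells, with medians of -0.29 in normal growth and -0.31 after serum and 15 (83.3%, against 34.3% of all genes) and 13 (72.2%, against 29.4%) of 18 lower with no overlap.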

How the data were processed

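Poly(A) RNA of 8 U2OS libraries in 4 groups of 2 was compared. The deposited table holds FPKM values per gene; per the submitters' processing notes the authors used TopHat2 2.0.13 and Cufflinks 2.2.1 with the hg19 and BDGP5 builds. The gene annotation, and whether strand was used in counting, are not given in the sources used here. The FPKM unit was read from these notes and the values, since the column names give none, and the column letter C was read as normal growth. Whole reads could not be recovered from the low values, so depth is unknown. Gene starts were taken as counting from 0, and 1 was added.

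Values were tested as log2(FPKM + 1) with limma 3.58.1 (R 4.3.3), with a mean per group, an intensity trend, 4 residual degrees of freedom, and a filter of at least 1 FPKM in at least 2 libraries, which kept 12996 of 22504 genes. P-values were Benjamini-Hochberg adjusted over all tested genes, with a threshold of 0.05. The script was tested on simulated data. Alternatives were the pseudocount, the filter, median-ratio and quantile scaling, the libraries in the fit, the trend, a replicate block and leaving out each library; counts of genes without overlap under other scalings were chosen after seeing the data.

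The members and lists were chosen with earlier results of these data known. Values per library are given for members called in any comparison, the 3 largest estimates each way in each comparison, and 8 members always shown. From each other list the called genes with the smallest adjusted p are named, at most 2 in each direction, and CDKN1A, WEE1, MYBL2, FZR1, RBL2 and LIN9 always. CENPC and CENPU were not analysed here.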

Additional observations from a re-analysis of the deposited data

How the results depend on the processing

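No called gene changed direction under any alternative, and a pseudocount of 0.1 changed none of the 5 counts of members called. In GFP cells after serum the count of 12 members called was 7 without the filter on low values (17.5%, against 8.43% of all genes called lower), 6 under quantile normalization (15%, against 14.8%), 6 with only the compared libraries in the fit (15%, against 11.9%) and 5 without the intensity trend (12.5%, against 12.6%), and 4 to 12 when each library was left out. In G13R cells after serum the count of 4 was 2 without the filter (5%, against 1.71%), 7 under median-ratio scaling (17.5%, against 6.53%) and 1 without the trend (2.5%, against 2.06%). All 4 calls were lost without G13R serum replicate 1, and likewise without G13R serum replicate 2. For G13R against GFP cells in normal growth the count of 0 was 1 with only the compared libraries (2.5%, against 0.26%), and 0 to 3 over the left-out libraries. The members' median was -0.23 under median-ratio scaling and -0.19 under quantile normalization, and -0.35 to -0.25 over the left-out libraries. After serum the count of 0 was 1 with a filter at 5 FPKM (2.5%, against 1.57%) and 0 to 17 over the left-out libraries, with medians of -0.34 to -0.17. The median difference of the serum responses, 0.07, was -0.035 under quantile normalization and -0.056 to 0.14 over the left-out libraries, so its sign is not stable. The cause was not tested. Where a group was left with 1 library, that library was assumed to vary like the other groups. Of the single genes named, 79 results lost and 47 gained their call over the alternatives.

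The groups share replicate numbers only. The differences between replicates 1 and 2 correlated between groups with r from 0.0169 to 0.1215. These correlations were weak but all positive, and replicate 2 was above replicate 1 for 29 to 36 members in each group. A weak correlation cannot exclude pairing, so whether the numbers pair the libraries was not decided. With the replicate block 12 members were called lower after serum in GFP cells (30%, against 16.3% of all genes) and 7 in G13R cells (17.5%, against 5.02%). For G13R minus GFP 2 were called lower in normal growth (5%, against 0.539%) and 6 after serum (15%, against 2.12%). For the difference of the responses 0 members and 0 of all genes were called. All genes called after serum were 4109 with the block and 3985 without in GFP cells, and 1797 and 1675 in G13R cells. In G13R against GFP cells they were 83 and 6 in normal growth, and 403 and 107 after serum. With only the compared libraries in the fit, the difference of the responses has no value of its own, since it uses all 8.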

Other observations

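Members were also divided by the TTTGAA or TTCGAA letters in their promoter window. The median log2 fold change of the 23 with a match and the 10 without was -0.15 and -0.06 after serum in GFP cells. It was -0.07 and -0.17 after serum in G13R cells. For G13R minus GFP it was -0.32 and -0.30 in normal growth, and -0.27 and -0.33 after serum. These are descriptions with no test, and the 7 members with no matched window are not among them. The serum estimate was smaller in G13R than in GFP cells, in absolute size, for 29 of the 40 genes, as it was for 63.3% of all genes tested.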
